A study of Mus musculus with 10 samples.

Results

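Pax5, Pax7, Gata2, Gata3, Tal1, Barhl1, Cnpy1, Zic1, Pax6 and Lmx1b are 10 genes used to mark or build the midbrain and the cerebellum of the mouse embryo. They were taken by symbol from a gene table of 55471 identifiers and were selected on their measured levels in part, because several of them were higher with treatment, so their differences between the groups are a description of the measured values and carry no test. All 10 were among the 17101 genes with at least 10 counts in at least 5 libraries. Of them, 9 encode transcription factors and Cnpy1 does not.

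The study sequenced RNA from the whole brain of 10 Swiss Webster mouse pups, labelled wild type and neonatal, with day 5 given as the age. Whether day 5 is that of injury, treatment or collection is not stated. Allopregnanolone, a neurosteroid that acts on GABA-A receptors, had been given to 5 pups with hypoxia-ischemia (libraries 6 to 10), and the 5 others had hypoxia-ischemia and no treatment (libraries 1 to 5). Every library therefore came from an injured brain, so no value here compares injured with uninjured tissue. The dose, the time between injury and collection, the litter and the sex of the pups, and whether untreated pups received a vehicle, are given in none of the sources used here.

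In the embryo, the boundary between midbrain and hindbrain (the isthmus) secretes FGF and WNT signals, and the cells on either side of it switch on Pax, En and Lmx1b genes that fix their position and their fate. Gata2, Gata3 and Tal1 belong to the lineage of neurons that release GABA, Pax7 marks the roof of the midbrain (the tectum, later the colliculi), and Lmx1b is needed in the dopamine and serotonin lineages. In the cerebellum, Zic1, Pax6 and Barhl1 belong to the granule cell lineage, although each of them is also used elsewhere in the brain.

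The depth was 18656836 to 34270723 estimated counts per library, highest in allopregnanolone library 6, which also stood apart in other ways. Its summed level of 10 meningeal genes was 480 CPM (counts scaled to library size), against 113 to 147 CPM in the other 4 allopregnanolone libraries and 108 to 144 CPM in the untreated ones. The collagen genes Col1a1 and Col1a2 made up 393 of the 480 CPM, and the other 8 meningeal genes summed to 87.2 CPM in library 6, against 42.3 to 75.5 CPM in the other treated libraries and 50.3 to 62.2 CPM in the untreated ones. Its summed level of 12 hindbrain and spinal genes, 11 of them Hox genes, was 3.19 CPM, against 0.0479 to 0.298 CPM in the other allopregnanolone libraries and 0 to 0.139 CPM in the untreated ones. Whole brain was a fitting label by its neuronal and glial markers, which were present in every library. The cerebellar label was not borne out by its defining marker: Atoh1, the factor that starts the granule cell lineage, had 0 counts in 8 of the 10 libraries and at most 3 in any. Barhl1, Zic1 and Pax6 are therefore described below as genes, with no claim that their RNA came from the cerebellum.

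The sequences just upstream of 4 of the genes are shown because these genes span the patterns described below: Gata2 (a small difference present in every treated library), Tal1 (a difference carried by few libraries), Pax5 (the largest fold) and Cnpy1 (a different order of libraries). They are the bases upstream of the annotated start in RefSeq (GRCm38.p6), up to the base before it except for Cnpy1, where the stretch stops earlier, at the edge of the GENCODE exon. They are written 5′ to 3′ on the gene's own strand. Capitals mark matches, on either strand, to 3 short motifs: AGATAA (bound by GATA factors), CANNTG (the E-box, bound by helix-loop-helix factors such as the product of Tal1) and GGGCGG (the GC box).
Pax5, chr4:44710695-44710944, minus strand: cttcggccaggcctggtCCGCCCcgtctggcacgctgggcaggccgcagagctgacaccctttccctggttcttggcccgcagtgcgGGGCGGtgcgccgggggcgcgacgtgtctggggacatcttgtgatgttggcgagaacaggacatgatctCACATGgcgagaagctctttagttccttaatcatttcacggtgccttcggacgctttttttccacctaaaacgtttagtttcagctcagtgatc
Gata2, chr6:88193641-88193890, plus strand: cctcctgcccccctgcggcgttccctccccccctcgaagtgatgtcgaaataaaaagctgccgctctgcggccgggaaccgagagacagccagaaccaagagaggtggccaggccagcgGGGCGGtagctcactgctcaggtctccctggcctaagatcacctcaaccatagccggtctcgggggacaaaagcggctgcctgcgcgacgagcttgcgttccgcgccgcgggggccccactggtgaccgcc
Tal1, chr4:115056176-115056425, plus strand: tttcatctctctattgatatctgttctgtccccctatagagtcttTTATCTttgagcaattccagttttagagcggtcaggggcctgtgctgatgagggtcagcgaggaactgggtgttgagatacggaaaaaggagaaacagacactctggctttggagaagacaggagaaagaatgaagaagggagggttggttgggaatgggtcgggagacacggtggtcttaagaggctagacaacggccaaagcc
Cnpy1, chr5:28245807-28246038, minus strand: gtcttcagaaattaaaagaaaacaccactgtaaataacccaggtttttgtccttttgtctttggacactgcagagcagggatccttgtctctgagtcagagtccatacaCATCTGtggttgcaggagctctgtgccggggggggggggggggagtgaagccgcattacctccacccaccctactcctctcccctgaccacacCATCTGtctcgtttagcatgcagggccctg

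The Pax5 stretch holds 2 GC boxes and 1 E-box, the Gata2 stretch 1 GC box, the Tal1 stretch 1 match to the GATA motif and the Cnpy1 stretch 2 E-boxes. RefSeq gave 15 windows of 300 bases (250 before and 50 after a start) for the 10 genes, since several have more than 1 start. Their median GC content was 63.7%, against 52.7% over all 32841 windows, and their median ratio of observed to expected CpG was 0.76, against 0.38. The GATA motif was found in 3 of the 15 windows (11.2% of all windows hold it), the E-box in 11 (72.3%), the GC box in 8 (35.7%), TAATTA, the core bound by many homeodomain factors, in 1 (5.29%), and TATAAA in none (13.6%). These are matches of letters, not binding sites.

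Of the 10 genes, 7 were higher and past the threshold of the quasi-likelihood test of edgeR, an adjusted p of 0.05, with allopregnanolone: Pax5, Pax7, Gata2, Gata3, Barhl1, Cnpy1 and Lmx1b. Tal1, Zic1 and Pax6 were not past it. Over all genes kept, 6.62% were called higher, and 11.3% were called in either direction. For lower calls the share was 4.65%. The genes were chosen with this contrast in view, so nothing is read from the count. In 4 genes, Pax5, Gata2, Barhl1 and Cnpy1, every allopregnanolone library was above every untreated one, which held for 5.44% of all genes kept, and in no gene was every one of them below (4.2% of all genes kept). In a sample of whole brain, more cells that express a gene and more RNA of it per cell cannot be told apart.

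**Figure D1:**
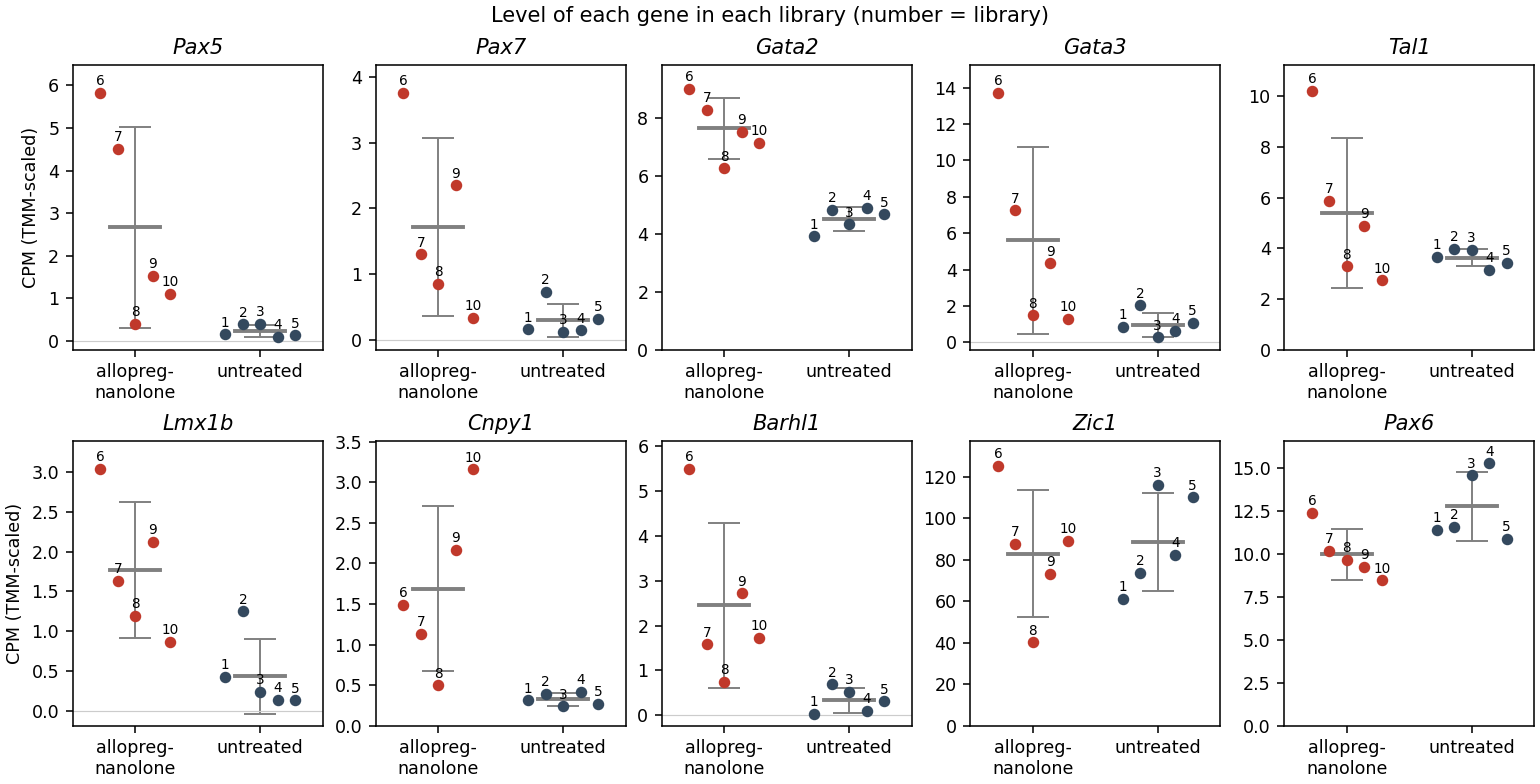
Level of each gene (CPM, scaled by the TMM method) in each library; the numbers are library numbers, and the grey line and bar give the group mean and SD (n = 5 each). In Pax5, Gata2, Barhl1 and Cnpy1 the allopregnanolone points all lie above the untreated ones, while in Zic1 and Pax6 the groups overlap.

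The regional identity genes Pax5 and Pax7 were close to the limit of counting in most untreated brains. Pax5, on chromosome 4 (44524757 to 44710487, minus strand, GRCm38), is a partner of Pax2 at the isthmus and is also the master factor of B cells. It had 5.82, 4.50, 0.397, 1.52 and 1.10 CPM in allopregnanolone libraries 6 to 10, against 0.156, 0.388, 0.396, 0.0924 and 0.134 CPM in untreated libraries 1 to 5. Libraries 6 and 7 were far above all others, and library 8 stood level with untreated libraries 2 and 3, so the separation of the groups rests on a difference of 0.397 against 0.396 CPM. The fitted log2 fold change was 3.49 with a standard error (SE) of 0.68, or 11.2-fold, on untreated counts of 2 to 10 per library.

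Pax7, also on chromosome 4 (139737062 to 139833528, minus strand), marks the tectum and other dorsal regions. It had 3.76, 1.30, 0.844, 2.35 and 0.336 CPM in allopregnanolone libraries 6 to 10, against 0.156, 0.733, 0.119, 0.139 and 0.312 CPM in untreated libraries 1 to 5. Libraries 6 and 9 were highest, library 10 lay within the untreated range, and the other 4 treated libraries were above the highest untreated one. The log2 fold change was 2.59 (SE 0.62), or 6.00-fold, on untreated counts of 3 to 17. Both genes passed the count filter with 4 allopregnanolone libraries and 1 untreated library at 10 or more counts, that is, mainly through the group in which they were higher.

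Gata2, Gata3 and Tal1 are factors of the GABA neuron lineage, and all 3 are also used in blood formation. Tal2, a relative of Tal1 listed for the midbrain part of that lineage, had at most 8 counts in any library and was not kept. Gata2 (chromosome 6, 88193891 to 88207032, plus strand), the earliest of them to act, was the steadiest of the 10 genes among the treated libraries. It had 9.01, 8.28, 6.26, 7.52 and 7.14 CPM in allopregnanolone libraries 6 to 10, against 3.91, 4.83, 4.32, 4.90 and 4.67 CPM in untreated libraries 1 to 5. The groups were separate by a clear margin, with means of 7.64 ± 1.05 CPM with allopregnanolone and 4.52 ± 0.412 CPM without (SD, n = 5 each). The log2 fold change was 0.76 (SE 0.12), or 1.69-fold, the smallest of the 7 that were past the threshold.

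Gata3 (chromosome 2, 9857078 to 9890034, minus strand) acts after Gata2 in the same neurons and was the most variable of the 10 among treated libraries. It had 13.7, 7.26, 1.49, 4.34 and 1.29 CPM in allopregnanolone libraries 6 to 10, against 0.859, 2.03, 0.277, 0.647 and 1.07 CPM in untreated libraries 1 to 5. Libraries 6, 7 and 9 were above every untreated library, whereas libraries 8 and 10 were below untreated library 2. The means were 5.62 ± 5.14 CPM with allopregnanolone and 0.975 ± 0.656 CPM without (SD, n = 5 each), a log2 fold change of 2.55 (SE 0.62), or 5.86-fold.

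Tal1 (chromosome 4, 115056426 to 115071755, plus strand), the helix-loop-helix partner of the GATA factors, had 10.2, 5.86, 3.28, 4.89 and 2.73 CPM in allopregnanolone libraries 6 to 10, against 3.67, 3.97, 3.92, 3.14 and 3.43 CPM in untreated libraries 1 to 5. Its 3 highest values were again in libraries 6, 7 and 9, but library 10 was the lowest of all 10, and the untreated libraries spread by only 9.53% of their mean against 55.0% in the treated ones. The log2 fold change was 0.59 (SE 0.29) and was not past the threshold. The 3 genes thus shared the order of their highest libraries and differed in how far below them libraries 8 and 10 lay.

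Red blood cells, endothelium and mast cells also use GATA factors or Tal1, and their markers were measured beside these genes. The summed level of red cell genes was 977 to 1570 CPM with allopregnanolone and 599 to 1470 CPM without, and 1 of its 6 kept genes, Slc4a1 (the anion exchanger of red cells), was called higher. The summed level of 9 endothelial genes was 173 to 206 CPM with allopregnanolone and 174 to 191 CPM without, with 1 gene, Flt1 (a VEGF receptor), called higher. Gata1, the GATA factor of red cells, had at most 6 counts and was at 0 in 6 libraries. Among 7 mast cell and basophil genes only Kit was kept. The part of these cell types in the levels of Gata2, Gata3 and Tal1 was not tested.

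Lmx1b (chromosome 2, 33560965 to 33640511, minus strand), a LIM homeodomain factor, maintains the isthmus and is needed by dopamine and serotonin neurons. It had 3.04, 1.63, 1.19, 2.12 and 0.863 CPM in allopregnanolone libraries 6 to 10, against 0.430, 1.25, 0.238, 0.139 and 0.134 CPM in untreated libraries 1 to 5. Untreated library 2 stood above the other untreated ones and above treated libraries 8 and 10. The log2 fold change was 2.02 (SE 0.53), or 4.06-fold, on untreated counts of 3 to 29. Of 9 kept genes of midbrain dopamine neurons, a lineage in which Lmx1b acts, 6 were called higher, among them Slc6a3, the dopamine transporter, at 17.6 ± 14.7 CPM with allopregnanolone and 1.72 ± 2.53 CPM without (SD, n = 5 each). The other 3, Nr4a2, Slc18a2 and Slc10a4, were not past the threshold, with log2 fold changes of −0.27, 0.80 and 0.18. The list was chosen with earlier results of these data known, and over all genes kept 6.62% were called higher. The count was 1 without untreated library 3 or 4, 2 without treated library 6, 7 or 9, and 4 in limma. It was 0 without untreated libraries 1 to 3.

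Cnpy1 (chromosome 5, 28200819 to 28245806, minus strand) encodes a secretory pathway protein that promotes FGF receptor signalling at the isthmus, as known from zebrafish. It had 1.49, 1.13, 0.497, 2.17 and 3.16 CPM in allopregnanolone libraries 6 to 10, against 0.312, 0.388, 0.238, 0.416 and 0.267 CPM in untreated libraries 1 to 5. Here libraries 10 and 9 were highest and library 6 came after them, and no other gene of the 10 had its highest value in library 10. The means were 1.69 ± 1.02 CPM with allopregnanolone and 0.324 ± 0.0764 CPM without (SD, n = 5 each), a log2 fold change of 2.37 (SE 0.43), or 5.18-fold. No untreated library reached 10 counts (6 to 9 each), so Cnpy1 passed the filter only through the treated group.

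The 2 libraries with most Cnpy1 were also the 2 highest for 3 of 23 listed cerebellar genes, named here after their values were seen. Gabra6, a GABA-A receptor subunit of granule cells, was at 0.0298, 0, 0.0993, 1.11 and 1.05 CPM in allopregnanolone libraries 6 to 10 and at 0.0391 to 0.172 CPM in the untreated ones. Pcp2, a Purkinje cell gene, was at 0.358, 0.169, 0, 2.03 and 2.11 CPM in allopregnanolone libraries 6 to 10 and at 0 to 0.172 CPM in the untreated ones. Cbln3, a granule cell gene, was at 1.01, 0.845, 1.04, 2.95 and 4.46 CPM in allopregnanolone libraries 6 to 10, against 0.647 to 1.16 CPM in the untreated ones. Libraries 9 and 10 stood above the others in all 3 genes, but not in the other 20. The summed granule cell genes were 202 and 239 CPM in libraries 9 and 10, against 196 to 252 CPM in the other treated libraries. In the untreated ones they were 194 to 261 CPM. The summed Purkinje cell genes were 364 and 337 CPM in libraries 9 and 10, against 300 to 345 CPM in the other treated libraries. In the untreated ones they were at most 335 CPM. Abundant genes made up most of both sums, among them Etv1 at 73.6 CPM and Itpr1 at 94.2 CPM with allopregnanolone. Gabra6, Pcp2 and Cbln3 reached at most 4.46 CPM, so the sums could not show a difference in them. The part of the pattern of these 3 genes in the level of Cnpy1 was not tested.

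Barhl1, Zic1 and Pax6, the genes with a known role in granule cells, did not share a direction. Barhl1 (chromosome 2, 28907679 to 28916668, minus strand), a homeodomain factor of migrating granule cells that is also expressed in the colliculi and in the mammillary and subthalamic regions, had 5.49, 1.58, 0.745, 2.72 and 1.73 CPM in allopregnanolone libraries 6 to 10, against 0.0391, 0.690, 0.515, 0.0924 and 0.312 CPM in untreated libraries 1 to 5. All treated libraries were above all untreated ones, by a narrow margin between treated library 8 and untreated library 2. The log2 fold change was 2.91 (SE 0.60), or 7.49-fold, on untreated counts of 1 to 16.

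Zic1 (chromosome 9, 91358058 to 91365810, minus strand), a zinc finger factor of granule cell precursors, thalamus, septum and meninges, had 125, 87.7, 40.2, 73.0 and 89.0 CPM in allopregnanolone libraries 6 to 10, against 61.2, 73.8, 116, 82.4 and 110 CPM in untreated libraries 1 to 5. Both the highest and the lowest of the 10 libraries were treated ones, 6 and 8, and the groups overlapped. The means were 82.9 ± 30.5 CPM with allopregnanolone and 88.6 ± 23.5 CPM without (SD, n = 5 each), a log2 fold change of −0.09 (SE 0.24). Pax6 (chromosome 2, 105668900 to 105697364, plus strand), a paired box factor of granule cells and of cortical progenitors, had 12.4, 10.2, 9.68, 9.28 and 8.48 CPM in allopregnanolone libraries 6 to 10, against 11.4, 11.6, 14.6, 15.3 and 10.9 CPM in untreated libraries 1 to 5. Only treated library 6 reached into the untreated range, and the log2 fold change was −0.34 (SE 0.13).

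**Figure D2:**
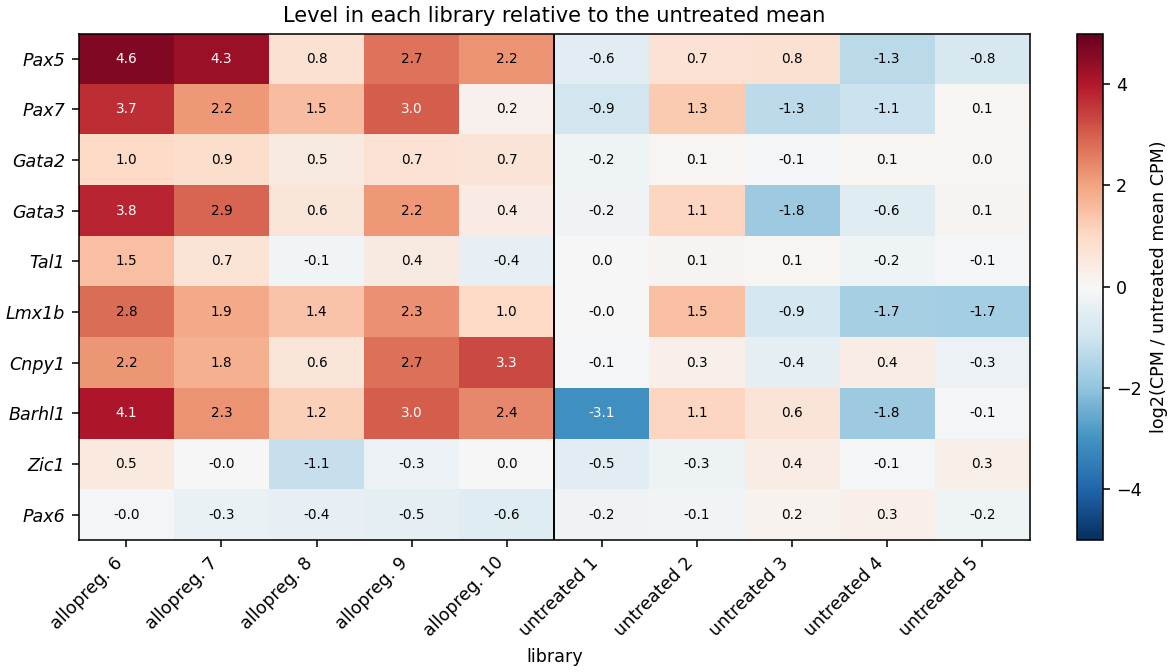
Heat map of each gene (rows) in each library (columns, allopregnanolone left of the line and untreated right of it); colour and number give the log2 ratio of the library's CPM to the untreated mean of that gene. Library 6 is darkest in most rows, library 8 is paler than it in most, Cnpy1 is darkest in library 10, and Gata2, Zic1 and Pax6 stay closer to 0 than the other genes.

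Per kilobase of annotated exon, which allows levels of different genes to be compared, Zic1 was by far the most abundant, at 14.6 CPM per kb with allopregnanolone and 15.6 CPM per kb without. Gata2, at 1.42 and 0.838 CPM per kb with and without allopregnanolone, Gata3, at 1.41 and 0.245, Tal1, at 1.23 and 0.828, and Pax6, at 0.857 and 1.09, came after it. With allopregnanolone, Barhl1 stood at 0.628 CPM per kb, and Lmx1b, Pax5, Pax7 and Cnpy1 lay close together at 0.363, 0.301, 0.293 and 0.288 CPM per kb. Neighbours in this order below Zic1 did not differ beyond the spread between the treated libraries. The 6 genes with the highest fold changes, Pax5, Barhl1, Pax7, Gata3, Cnpy1 and Lmx1b, were also the 6 with the lowest untreated level per kb, from 0.0263 CPM per kb for Pax5 to 0.245 for Gata3. The untreated level divides the fold and the genes were chosen partly for rises, so nothing is read from this match.

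Some exon bases are shared with overlapping genes, and the strand setting of the counting is not given in the sources used here. Of the annotated exon bases of Pax5, 7.18% overlap 5730488B01Rik and 1.41% overlap Gm12462, both on the opposite strand, and of those of Gata3, 3.9% overlap Gm13256 on the opposite strand and 1.94% overlap 9230102O04Rik on the same one. Gm12462 averaged 0.810 CPM with allopregnanolone and 1.02 CPM without, so it did not follow Pax5, and the other 3 were at or below 0.0513 CPM in both groups. Zic1 shares 1.05% of its exon bases with Zic4, on the opposite strand, and the other 7 genes share none.

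The treated libraries differed among themselves more than the untreated ones in absolute level, except for Pax6. Library 6 was the highest of all 10 in 8 of the 10 genes, every one except Cnpy1 and Pax6; over all genes kept, library 6 was the highest in 15.2%. The second highest was library 7 in 4 genes and library 9 in 4 genes. Gata3, Pax5 and Pax7 were 4.71, 4.43 and 3.51 times as high in library 6 as in the median of the other 4 treated libraries, while Gata2 was 1.23 times as high and Cnpy1 0.905 times. The 2 collagen genes and the Hox genes given above stood out in library 6 alone. In the other 4 treated libraries, with libraries 7 and 9 among them, the 2 collagen genes summed to 62.0 to 71.7 CPM. The part of this deviation of library 6 in the levels of the 10 genes was not tested. Without library 6 the folds were lower for most genes: Pax5 stood at 7.67-fold, Barhl1 at 5.06, Pax7 at 4.11, Gata3 at 3.66, Lmx1b at 3.27 and Gata2 at 1.61, whereas Cnpy1 stood at 5.31-fold. Lmx1b was then no longer past the threshold, Pax6 was past it and lower with allopregnanolone (log2 fold change −0.44), and Tal1 stood at 1.15-fold.

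**Figure D3:**
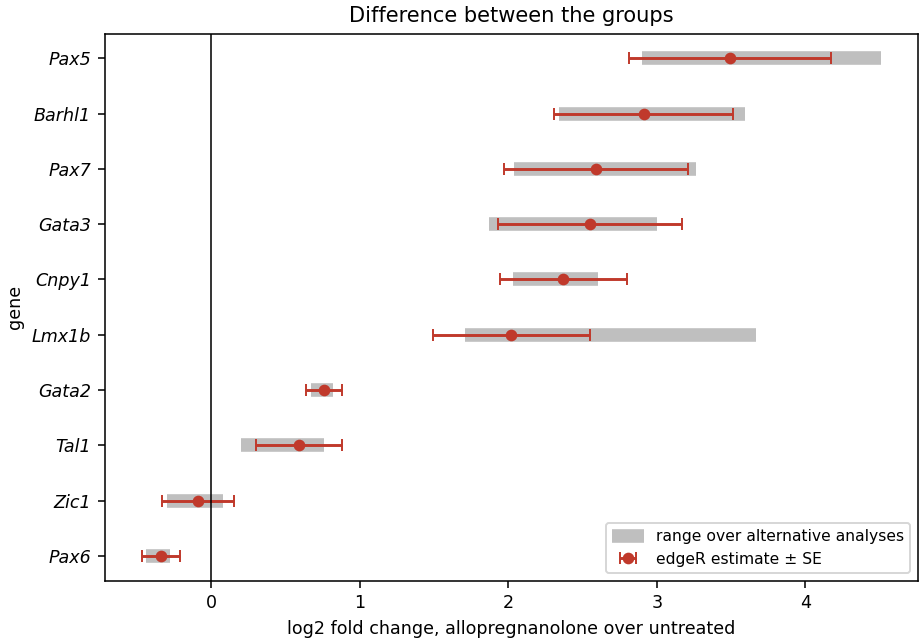
Log2 fold change of each gene, allopregnanolone over untreated, with its SE (red points and bars) and the range of estimates over the alternative analyses (grey bands). The bands of Pax5, Barhl1, Pax7, Gata3, Cnpy1, Lmx1b, Gata2 and Tal1 lie above 0, that of Pax6 below 0, and that of Zic1 crosses 0.

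Untreated libraries 3 and 4 also bore on the number of genes past the threshold, which was 4 without either of them and 6 without untreated library 1, against 7 with all libraries; without treated library 9 it was 6. The column names carry a prefix that differs between untreated libraries 1 to 3 and the other 7, and its meaning is not given in the sources used here. Against the 2 untreated libraries with the same prefix, log2 fold changes were 4.51 for Pax5, 2.93 for Pax7, 0.67 for Gata2, 2.73 for Gata3, 3.59 for Barhl1, 2.29 for Cnpy1 and 3.67 for Lmx1b, so the direction was that of all libraries, and Lmx1b alone was past the threshold. No treated library carries the other prefix.

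To see which of the 10 genes varied together beyond the difference between groups, the group mean of log2 CPM was subtracted and the deviations were correlated over the 10 libraries. Of 45 pairs, 41 had Pearson's r above 0, with a median of 0.53, and 8 were above 0.7. The highest was between Gata3 and Pax7 (r = 0.88, Spearman's rho = 0.94). Tal1 and Pax5 came to 0.83 (rho = 0.94), and Tal1 and Gata3 to 0.81. Cnpy1 ran apart, with r of −0.18 to 0.42. The pairs share libraries, depth and the strong values of library 6: without it the median was 0.34, 36 pairs were above 0, and Gata3 with Pax7 stood at 0.82.

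**Figure D4:**
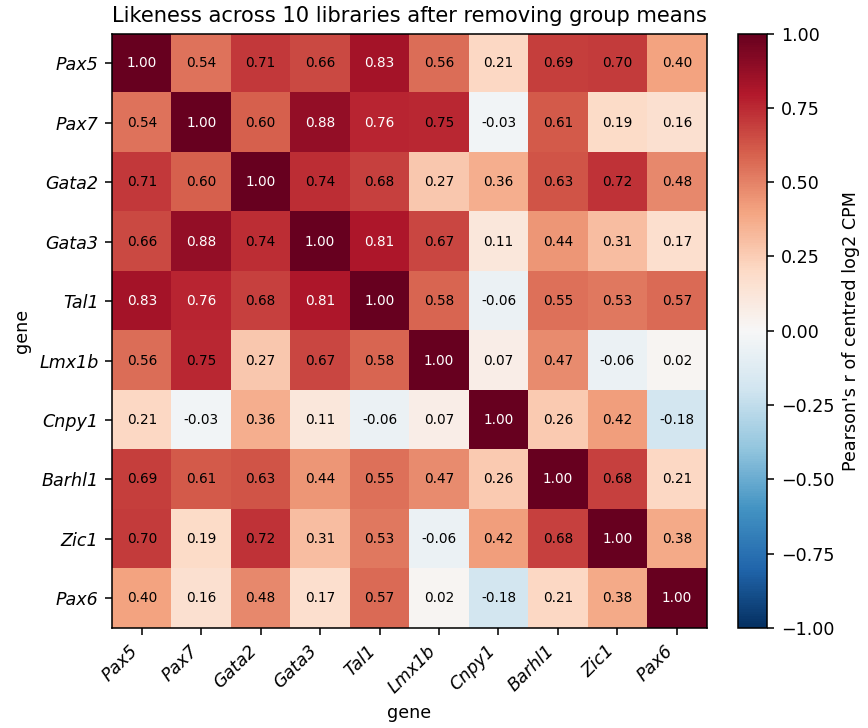
Pearson's r between each pair of the 10 genes over 10 libraries, from log2 CPM after the mean of each group was subtracted. Gata3, Pax7, Tal1 and Pax5 form the reddest block, up to 0.88 for Gata3 with Pax7, and the row of Cnpy1 stays between −0.18 and 0.42.

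Among all other named protein-coding genes kept, the ones most like each of the 10 by the same measure were partly genes of the same regions. Over 10 libraries the highest of so many correlations is high by selection, so these are listed as a description. For Gata3 the most alike gene was En1, an isthmus and midbrain homeodomain gene (r = 0.95, rho = 0.90, and 0.98 without the 2 libraries farthest from the median), followed by Syt2 and Megf11 (both 0.93). For Pax7 they were Cd83 (0.96), Sox14, a factor of midbrain and thalamic GABA neurons (0.95), and Clgn (0.92). For Zic1 they were Spag1 (0.97), Amigo2 (0.96) and its overlapping neighbour Zic4 (0.95). For Tal1 they were Pip5kl1 (0.96), Irx1 and Ltbp3 (both 0.95), and Irx1 is a factor of the thalamus and midbrain.

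The genes most like the other 6 included none from the lists of midbrain or cerebellar genes used here. For Pax5 they were Abhd11 (0.95), Tmem150a (0.94) and Lpo (0.93), for Gata2 Asb16, Lrrn1 and Rnf152 (0.94 each), and for Barhl1 Osbpl5 and Cables2 (0.96 each) and Slc29a4 (0.95). Those of Pax6 included Cnot10 (0.96) and Catsperg1 (0.94), and those of Lmx1b were Mocs3 (0.96), Brat1 (0.90) and Cpeb1 (0.89). For Cnpy1 they were Fam161a and Cox16 (0.93 each) and Scarb2 (0.92), which came to 0.70, 0.70 and 0.61 without libraries 8 and 10. With ranks in place of values, none of the 3 genes stayed among the top 3 of Gata2, Gata3, Tal1 and Cnpy1, and 1 or 2 did for the other 6.

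Other genes of the same programmes, which are no members of the 10 and were tested across all genes kept, moved in part with them. Their lists were chosen with earlier results of these data known, so they are no independent test. For this and the other lists, the shares over all genes kept were 6.62% called higher and 4.65% called lower. Without the 3 untreated libraries of the other prefix, 0 genes of the isthmus and midbrain list were called higher. Of 15 other genes that pattern the isthmus and midbrain, 9 were kept, 2 were called higher and 1 lower, with a median log2 fold change of 0.28, against −0.00 over all genes kept. En1, which with En2 keeps midbrain and cerebellar cells alive, averaged 3.65 ± 3.38 CPM with allopregnanolone and 0.215 ± 0.216 CPM without (SD, n = 5 each), a log2 fold change of 4.08 (SE 0.85, adjusted p = 0.00951, edgeR's quasi-likelihood test). Like Pax5 and Pax7, En1 passed the count filter mainly through the group in which it was higher. Its call is to be read with that limit. En2 averaged 1.64 ± 0.803 CPM with allopregnanolone and 0.537 ± 0.245 CPM without, a log2 fold change of 1.60 (SE 0.39, adjusted p = 0.0205 in edgeR). Sp8, a factor of the isthmus and of forebrain interneurons, averaged 4.69 ± 0.624 CPM with allopregnanolone and 8.59 ± 3.71 CPM without, a log2 fold change of −0.86 (SE 0.26, adjusted p = 0.0482 in edgeR).

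In both En genes the libraries overlapped between the groups. En1 had 6.65, 7.71, 0.298, 2.81 and 0.767 CPM in allopregnanolone libraries 6 to 10, against 0.156, 0.560, 0, 0.0924 and 0.267 CPM in untreated libraries 1 to 5, with libraries 6, 7 and 9 highest, as in Gata3. Over the alternatives its adjusted p in edgeR or the other tools was 0.00126 to 0.162. That of En2 was 0.00205 to 0.113, and its call was lost without untreated library 3 (0.0543) or 4 (0.0569). That of Sp8 was 0.00523 to 0.128, and it was lost without any 1 of 7 libraries. En2 lies 28652 bases from Cnpy1 on chromosome 5, yet the deviations of the neighbours correlated with r = 0.38 (rho = 0.14) over 10 libraries. Of the secreted signals of the isthmus, Fgf8 had at most 4 counts and Wnt1 at most 2 in any library, and Fgf17, with a log2 fold change of 0.28, was not past the threshold.

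The Pax genes closest in kind to Pax5 and Pax7 were below the count filter and could not be tested. Pax2, the other isthmus Pax gene, averaged 0.435 ± 0.279 CPM with allopregnanolone and 0.237 ± 0.101 CPM without, and Pax3, the partner of Pax7 in dorsal cells, 0.304 ± 0.267 CPM with it and 0.0448 ± 0.0771 CPM without (SD, n = 5 each). Pax8, the third gene of the Pax2 and Pax5 subfamily, had 0.686, 0.619, 0.0497, 0.185 and 0 CPM in allopregnanolone libraries 6 to 10, and at most 0.0431 CPM in the untreated ones. Libraries 6 and 7 were the highest for Pax8, as they were for Pax5.

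Of 12 other genes of the midbrain GABA lineage, in which Gata2, Gata3 and Tal1 act, 10 were kept and 4 were called higher, with a median log2 fold change of 0.59. Nkx6-2, also a gene of oligodendrocytes, averaged 6.86 ± 0.721 CPM with allopregnanolone and 3.01 ± 1.02 CPM without (SD, n = 5 each), a log2 fold change of 1.19 (SE 0.20, adjusted p = 0.00283 in edgeR). Lhx1 averaged 3.56 ± 2.00 CPM with allopregnanolone and 1.51 ± 0.564 CPM without (adjusted p = 0.0350 in edgeR), Nkx6-1 averaged 1.67 ± 1.31 and 0.505 ± 0.117 CPM (adjusted p = 0.0362), and Sox14 averaged 1.83 ± 1.16 and 0.499 ± 0.316 CPM in the same order (adjusted p = 0.0388). The count was 1 in place of 4 when library 6, library 7 or untreated library 1, 3 or 4 was left out. It was 0 without the 3 untreated libraries of the other prefix. Over all genes kept, 6.62% were called higher. All 10 genes of a myelin list were called higher too, with summed levels of 6010 to 8110 CPM with allopregnanolone and 2030 to 3910 CPM without, and the part of oligodendrocytes in the level of Nkx6-2 was not tested. The cofactors of the GATA and Tal1 proteins, Zfpm1, Zfpm2, Lmo2 and Ldb1, were not past the threshold, with log2 fold changes of 0.23, 0.09, 0.01 and 0.03.

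Of 10 genes of the tectum and of midbrain excitatory neurons, 7 were kept, with 1 called higher and 1 lower and a median log2 fold change of 0.25. Tfap2b, a factor of collicular neurons, averaged 5.17 ± 4.52 CPM with allopregnanolone and 1.36 ± 0.267 CPM without (SD, n = 5 each), a log2 fold change of 1.95 (SE 0.51, adjusted p = 0.0281 in edgeR). Without library 6 or 9, or without untreated library 1, 3 or 4, it was not past the threshold. Meis2, a cofactor of tectal fate that is also abundant in the striatum, averaged 96.8 ± 10.7 CPM with allopregnanolone and 155 ± 23.6 CPM without, a log2 fold change of −0.68 (SE 0.10, adjusted p = 0.00191 in edgeR), and kept its call in all 18 alternatives.

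Few genes of the cerebellar lists were called. As for the members, no claim is made that the RNA of these genes came from the cerebellum. Atoh1 had at most 3 counts in any library, and Pcp2 averaged 0.0936 CPM in the untreated libraries, far below Foxp2, Etv1 and Cbln1. Of 11 kept genes of the granule cell lineage other than the members, none was past the threshold in edgeR, DESeq2 or limma, 2 had an unadjusted p under 0.05 in edgeR, and the median log2 fold change was 0.05. Cbln1, a synaptic organiser secreted by granule cells, averaged 44.0 ± 10.7 CPM with allopregnanolone and 42.5 ± 10.2 CPM without, and Etv1, a factor of maturing granule cells, 73.6 ± 5.41 CPM with it and 80.8 ± 4.59 CPM without (SD, n = 5 each). Zic2, Zic4 and Zic5 had log2 fold changes of 0.17, −0.30 and −0.22 and were not past the threshold. Of 7 kept genes of Purkinje cells and their lineage, 1 was called, Foxp2, at 30.2 ± 6.49 CPM with allopregnanolone and 40.5 ± 3.32 CPM without (log2 fold change −0.42, SE 0.12, adjusted p = 0.0362 in edgeR); the call was lost without any 1 of 7 libraries.

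Neighbouring regions were measured for the same reason. Of 10 genes of the thalamus and pretectum, 2 were called higher: Plekhg1 (log2 fold change 0.63, SE 0.10, adjusted p = 0.00243 in edgeR) and Irx3 (1.66, SE 0.50, adjusted p = 0.0468 in edgeR), whose call was lost in 9 of 17 alternatives. Of 12 genes of the cortex and forebrain, 3 were called lower and 1 higher, with a median log2 fold change of −0.18, and their summed level was 876 to 1100 CPM with allopregnanolone and 1140 to 1200 CPM without, with no overlap. Neurod6, a factor of cortical excitatory neurons, averaged 89.0 ± 13.4 CPM with allopregnanolone and 134 ± 9.41 CPM without (SD, n = 5 each), a log2 fold change of −0.59 (SE 0.09, adjusted p = 0.00173 in edgeR). The part of the proportion of forebrain and midbrain tissue in the levels of the 10 genes was not tested.

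**Figure D5:**
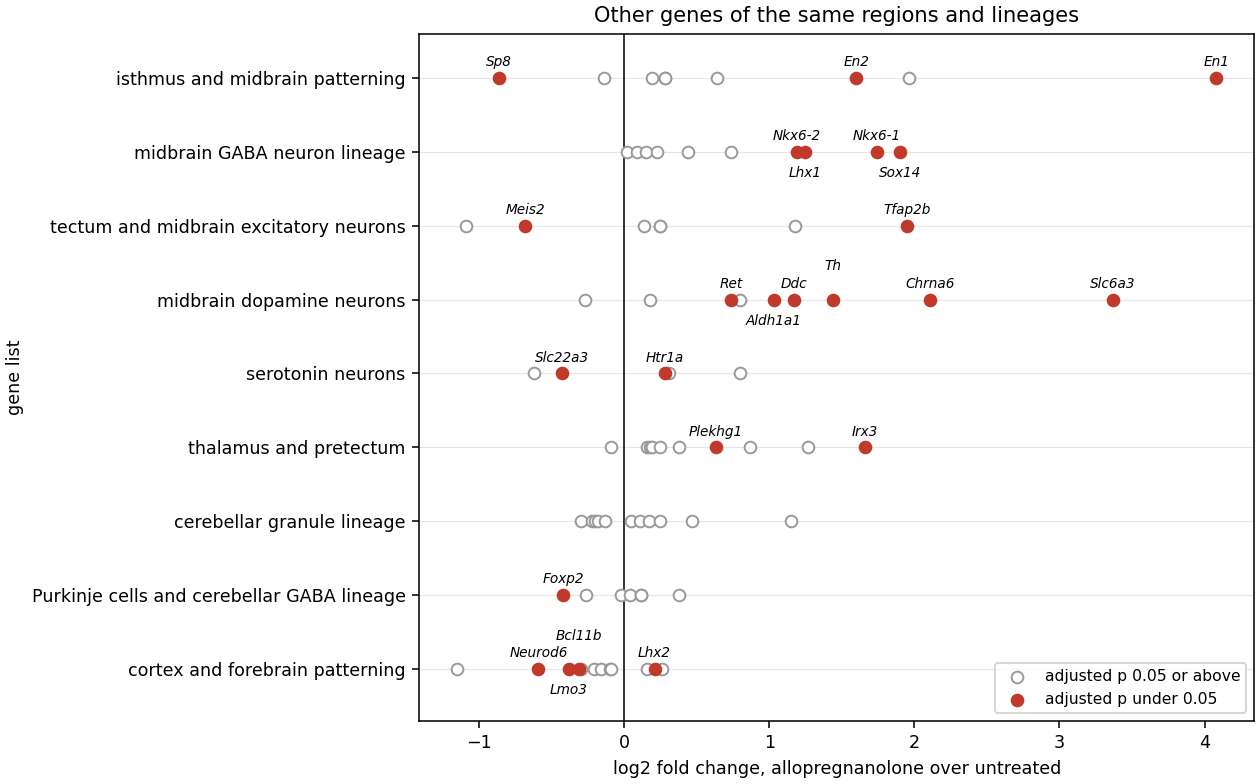
Log2 fold change (allopregnanolone over untreated) of each kept gene of 9 lists, members left out; filled points are past an adjusted p of 0.05 in edgeR and are named. Points to the right of 0 prevail in the midbrain lists, with En1 farthest at 4.08, and the cerebellar granule list holds no filled point.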

How the data were processed

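RNA was prepared with the RNeasy Mini Plus kit and libraries with the NEBNext Ultra II Directional kit, per the labels' protocols; the submitters' processing notes name Partek and mm10. The aligner, the annotation and the strand setting are in none of the sources used here. The deposited gene table holds estimated counts (expected counts) for 55471 identifiers. Its name calls the values normalized, but 86.8% to 87.6% of the values above 0 in each library were whole numbers and totals differed, so they were rounded and analysed as counts. No column was left out. Names and coordinates came from GENCODE M21 (GRCm38), which holds 55230 of the identifiers and lacks 241.

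Genes with at least 10 counts in at least 5 libraries were kept, scaled by TMM (factors 0.953 to 1.04) and compared in edgeR 4.0.16 (R 4.3.3) by a two-sided quasi-likelihood test without covariates, with Benjamini-Hochberg adjustment over 17101 genes and a threshold of 0.05. Log2 fold changes are allopregnanolone over untreated, and likeness used log2 CPM with a prior count of 1. Alternatives used DESeq2 1.42.0, limma 3.58.1, other scalings and filters, and each library left out. The edgeR step was tested on simulated data. Python 3.11.15 and matplotlib 3.10.9 made the figures.

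The 10 genes and the 24 gene lists were chosen with earlier results of these data known. From each list the text names up to 4 called genes with the smallest p, or the 2 most abundant where none was called, and for each member the 3 most alike genes; other list genes were named after their values were seen, and some named by this rule are not reported here. Nothing says whether pups came from separate litters, so p-values measure the spread between these libraries. Counting error alone is large for genes under 10 counts.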

Additional observations from a re-analysis of the deposited data

Results flagged for a closer look

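Of the 20 groups of 5 values examined (10 genes in each group), 1 held a library far from the rest by Dixon's criterion, which chance meets in about 1 in 20 groups. Lmx1b stood at 1.25 CPM in untreated library 2, against 0.134 to 0.43 CPM in the other 4 untreated libraries. The same library was also the highest of the untreated ones for Pax7, Gata3, Barhl1 and, narrowly, Tal1 (3.97 CPM, against 3.92 CPM in untreated library 3). It was not the highest of them for Pax5, Gata2, Cnpy1, Zic1 or Pax6.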

How the results depend on the processing

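No paired analysis was possible because the groups share no replicate numbers. The members were chosen partly for rises in this contrast, so the stability of their direction over the same libraries carries no test. The direction of the 7 called members held in each alternative that could fit them: Pax5 ranged over log2 fold changes of 2.90 to 4.51, Pax7 2.04 to 3.26, Gata2 0.67 to 0.82, Gata3 1.87 to 3.00, Barhl1 2.34 to 3.59, Cnpy1 2.03 to 2.60 and Lmx1b 1.71 to 3.67, the last value without the 3 untreated libraries of the other name prefix. Tal1 ranged from 0.20 to 0.76, Pax6 from −0.44 to −0.28 and Zic1 from −0.30 to 0.08, and Zic1 was above 0 without treated library 8 or untreated library 3. With at least 100 counts required, only Gata2, Zic1 and Pax6 could be fitted.

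The number of all genes called was 1132 higher and 796 lower, or 783 and 1451 with library totals alone, which moved the median log2 fold change of all genes by −0.06, and 1066 and 956 with upper-quartile scaling. Leaving out 1 library gave 647 to 1357 higher and 437 to 984 lower, lowest without untreated library 3 or 4, and leaving out the 3 libraries of the other prefix 76 and 23. Of the listed genes other than members, 31 were called higher and 8 lower; leaving out 1 library gave 15 to 32 and 4 to 9, and leaving out those 3 gave 9 and 1. Of 31 named list genes with a call, 5, among them Ermn, Mal, Meis2 and Opalin, held it in every alternative and none turned round, while 26 lost it without those 3 libraries, which leaves 2 untreated ones. Depth limits Pax5, Pax7, Barhl1, Cnpy1 and Lmx1b most, each with untreated libraries under 10 counts.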
